A study of Mus musculus with 12 samples.

Results

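The genes described here encode collagens, laminins and matrix glycoproteins, the proteins from which the basement membranes and the interstitial matrix of the kidney are built. They were chosen by symbol: every collagen chain and laminin chain gene in the count table, together with Fn1, Tnc, Sparc, Postn, Nid1, Nid2, Hspg2, Agrn, Fbn1, Dcn, Bgn and Lum, where at least 4 of the 12 kidneys had 10 or more counts. Such a symbol was carried by 68 of the 23420 genes counted, and 53 of these met the minimum, of which 52 are described here. Another 8 had 0 counts in every kidney (Col10a1, Col28a1, Col6a4, Col6a5, Col9a1, Col9a2, Col9a3 and Lum), and 7 stayed below the minimum (Col11a1, Col22a1, Col23a1, Col2a1, Col6a6, Col8a2 and Dcn). Col4a3bp was taken in by its symbol alone and encodes a ceramide transfer protein, not a collagen.

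RNA was sequenced from 12 kidneys of male C57BL/6J mice, 4 in each of 3 groups. Control kidneys were removed by nephrectomy as normal tissue, and the other 8 were collected 24 h after the renal pedicle had been clamped for 20 min, a treatment that the labels list for the control kidneys too. Titles and group field contradict each other for the ischemic kidneys: ischemia set A holds the 4 kidneys with an anaesthetised title and a conscious group field, and ischemia set B the 4 with the reverse. No direction is therefore given to anaesthesia, and the names set A and set B are kept. In the study's protocols the right kidney was excised before the left was clamped, anaesthesia was a mix of ketamine and xylazine, and conscious mice were lightly sedated with isoflurane while the clamp was closed and opened. There the comparison of anaesthetised with conscious mice was made with the RIRI clamp, an implanted clamp that is closed from outside the body, in mice kept warm in an incubator, and the mice of the study were young adults. The labels do not say whether these kidneys came from that experiment, and they do not give the age of each mouse. Under these protocols the mice with a clamped kidney also had nephrectomy and clamp surgery, pain relief and sedation or anaesthesia. The comparison with control cannot tell these apart from ischemia, and the words after ischemia below name the groups, not a cause.

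Collagens are trimers that fall into families. Fibrillar collagens bear tension in the interstitium, type IV collagens form the network of basement membranes, and other collagens decorate fibrils, form beaded filaments or span membranes. Laminins are trimers of an alpha, a beta and a gamma chain that polymerise in basement membranes, where nidogens, perlecan and agrin link them to type IV collagen and to cells. In the kidney these sheets surround every tubule and capillary, and the glomerular basement membrane is part of the filtration barrier. Fibronectin, tenascin-C, SPARC and periostin belong to the matrix that is laid down or remodelled in injured tissue.

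Each kidney yielded from 15367342 to 44793350 gene counts, of which the 52 genes took 0.227% to 0.268% in the control kidneys, 0.351% to 0.692% across set A and 0.368% to 0.61% across set B. Values are given as CPM, the counts of a gene scaled to a common library size with the TMM factors of edgeR, and the detection floor of 3 counts lay between 0.067 and 0.195 CPM. A low value is not proof of a silent gene in these libraries, because several genes that every cell uses were almost without counts: B2m did not exceed 43 counts in any kidney. Of protein-coding genes with less than 2 kb of exon, 63.4% had 0 counts in all kidneys, against 11.3% of those with more than 6 kb. The matrix genes are long (3.788 to 16.338 kb of exon, median 8.0745 kb), and changes within a gene are therefore given more weight here than levels between genes. Each value comes from bulk kidney tissue, in which fewer cells of a type and less RNA per cell cannot be told apart.

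More matrix genes were called higher than lower after ischemia, and 29 of the 52 were not called in either direction in set A, as were 29 in set B. Against control, the quasi-likelihood test of edgeR, adjusted after Benjamini and Hochberg over all 11664 genes tested (adjusted p below 0.05) called 21 of the 52 genes higher and 2 lower in set A, and 17 higher and 6 lower in set B. For comparison, 10.5% of all genes tested were called higher and 11.7% lower in set A, and 10.9% were called higher and 11.9% lower in set B. The calls were 40.4% of the members for higher and 3.85% for lower in set A, and 32.7% and 11.5% in set B. The median log2 fold change of the 52 genes was 0.88 for set A and 0.66 for set B, and that of all genes tested was -0.02 in each. All 4 kidneys of set A lay above all 4 control kidneys for 20 members and below them for 6, where 12.6% and 15.7% of all genes tested did so. All 4 kidneys of set B lay above all controls for 15 members and below them for 8, against 11.6% and 15.1% of all genes tested. A gene could enter the list through counts in the ischemic kidneys alone, but 19 of the 21 genes called higher in either set had 10 or more counts in all 4 control kidneys. The 20 members above all controls in set A include Col17a1, Col24a1 and Col25a1, which had fewer than 10 counts in every control kidney. Their place above the controls was favoured by the minimum and is no support for a rise. Col6a6, with 0, 78, 131 and 92 counts in the control kidneys and 0 in every ischemic kidney, missed the minimum. The comparisons of set A and set B with control share their control kidneys and are not independent of each other.

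Called higher in both sets were 17 genes: the collagen genes Col1a1, Col1a2, Col3a1, Col5a1, Col4a1, Col4a2, Col6a3, Col12a1, Col15a1 and Col18a1, the laminin genes Lama5, Lamb3 and Lamc1, and Agrn, Fbn1, Sparc and Tnc. Col4a3 and Lama3 were called lower in both. Col17a1, Col8a1, Fn1 and Nid1 passed as higher in set A alone, and Col14a1, Col27a1, Lama2 and Col4a3bp passed as lower in set B alone. No member differed between set B and set A at an adjusted p below 0.05 (0 of 52, against 1 gene or 0.00857% of all genes tested), so none of these 8 differences between the lists of calls is shown to be a difference between the sets.

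**Figure D1:**
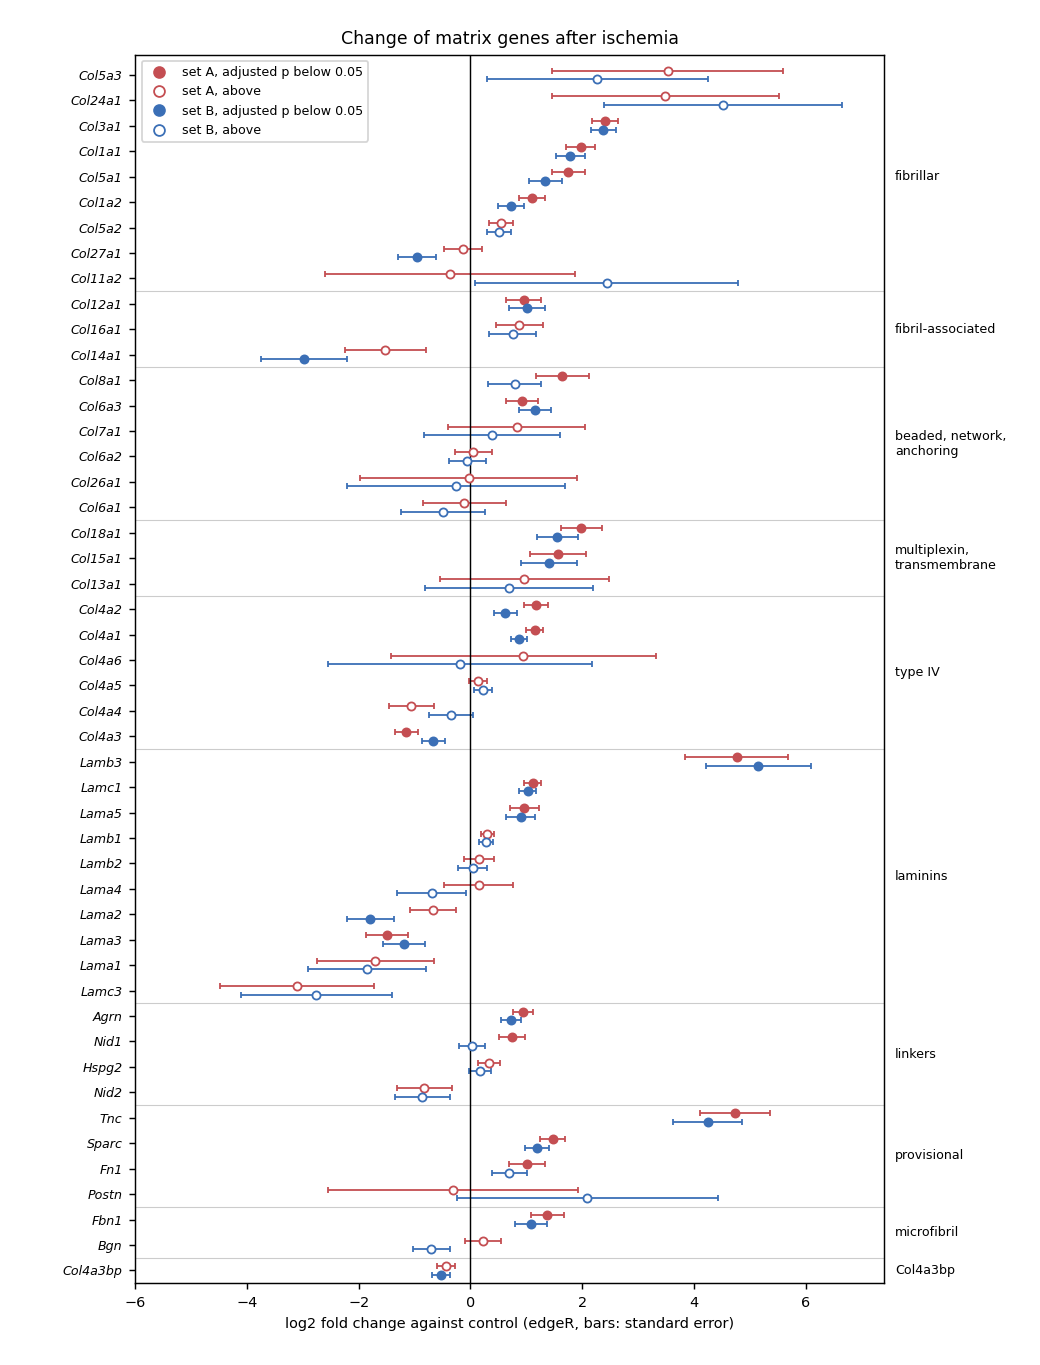
Log2 fold change against control of the members with more than 3 counts in at least 1 kidney of every group, grouped by role, as points with standard errors from edgeR, for ischemia set A (red) and ischemia set B (blue), 4 kidneys against 4 control kidneys. Filled points have an adjusted p below 0.05. The rises of Tnc and Lamb3 exceed 4 on the log2 scale in each set, while Col4a3 and Lama3 lie left of 0 in each.

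Among the 9 fibrillar collagen genes 4 were called higher in each set, none was called lower in set A, and 1 was called lower in set B. The higher calls made up 44.4% of them, against 10.5% (set A) and 10.9% (set B) of all genes tested, and the lower call in set B 11.1%, about the 11.9% of all genes. Col3a1 encodes the type III collagen of distensible tissues and lies on chromosome 1 (chr1:45311538-45349706, plus strand, mm10). Its levels were 45.9, 38.1, 43.8 and 30.2 CPM in the 4 control kidneys, 269, 168, 259.9 and 142 CPM across set A and 198, 176, 290.2 and 156 CPM across set B. Every ischemic kidney exceeded every control kidney, and the lowest of them was more than 3 times as high as the highest control. The rise was 5.31-fold in set A (edgeR, log2 fold change 2.41, SE 0.23, adjusted p = 1.75e-07) and 5.2-fold in set B (log2 fold change 2.38, SE 0.23, adjusted p = 2.13e-07). The promoter window of Col3a1 is shown because this gene had the smallest adjusted p of all members in both comparisons. It runs from 250 bases before to 50 bases after the start of the transcript (RefSeq, GRCm38.p6, chr1:45311288-45311587, plus strand), is written 5′ to 3′, and carries the letters TATAAA once, in capitals. These letters or their reverse TTTATA occur in such windows of 15.7% of all 27025 genes.
Col3a1: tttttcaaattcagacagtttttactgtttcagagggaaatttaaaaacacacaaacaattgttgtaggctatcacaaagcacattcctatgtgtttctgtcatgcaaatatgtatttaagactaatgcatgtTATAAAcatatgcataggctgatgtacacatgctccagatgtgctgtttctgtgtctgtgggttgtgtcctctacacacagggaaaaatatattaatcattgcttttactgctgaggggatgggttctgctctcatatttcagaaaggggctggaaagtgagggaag

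Col1a1 encodes the alpha1 chain of type I collagen, the main tensile protein of fibrotic tissue. Control kidneys had 354, 425, 366 and 329 CPM, set A had 2167, 1185, 1694 and 732 CPM and set B had 1188, 964, 1998 and 946 CPM. The ranges of control and ischemic kidneys did not overlap, and in each set the highest kidney had more than 2 times the level of the lowest. Col1a1 rose 3.92-fold in set A (edgeR, log2 fold change 1.97, SE 0.27, adjusted p = 1.31e-05) and 3.46-fold in set B (log2 fold change 1.79, SE 0.26, adjusted p = 3.84e-05). Its partner chain gene Col1a2, which the naming rule did not cover and which was picked after its values were seen, rose too: it went from 138 ± 15.3 CPM (mean ± SD, n = 4) to 295 ± 107 CPM across set A and 228 ± 72.3 CPM across set B, with log2 fold changes of 1.10 (SE 0.23, edgeR adjusted p = 0.00134) and 0.73 (SE 0.23, adjusted p = 0.0268). The call of Col1a2 in set B was lost without set B replicate 3 (adjusted p = 0.157) and without control replicates 1, 3 or 4 (adjusted p between 0.0523 and 0.0848).

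Type I collagen is normally a trimer with more alpha1 than alpha2 chains. A ratio of CPM measures RNA and is not corrected for gene length, so it does not give the ratio of these chains. The ratio of Col1a1 to Col1a2 CPM was 2.45, 2.73, 2.83 and 2.72 in the control kidneys, 5.31, 4.79, 4.77 and 4.3 across set A and 6.13, 4.47, 6.01 and 5.59 across set B. All 8 ischemic kidneys thus had a higher ratio than any control. The ratio of Col3a1 to Col1a1 was 0.13, 0.0897, 0.12 and 0.0917 in control, 0.124, 0.142, 0.153 and 0.193 across set A and 0.167, 0.183, 0.145 and 0.165 across set B, with overlap between set A and the controls.

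Col5a1, a chain of the type V collagen that nucleates fibrils, had 16.6, 19.9, 20.3 and 16.7 CPM in the controls, 70.03, 63.2, 80.7 and 33.1 CPM across set A and 51, 30.4, 73.5 and 30.5 CPM across set B. Its lowest ischemic kidney was above its highest control. It rose 3.36-fold in set A (edgeR, log2 fold change 1.75, SE 0.30, adjusted p = 0.000186) and 2.52-fold in set B (log2 fold change 1.34, SE 0.30, adjusted p = 0.00217). Col5a2, whose product pairs with that of Col5a1 and whose gene lies 24.615 kb from Col3a1, was also higher in every ischemic kidney than in any control but missed the threshold, with log2 fold changes of 0.55 (edgeR adjusted p = 0.0728) and 0.51 (adjusted p = 0.0911). It passed in set A when only the groups compared were fitted (edgeR adjusted p = 0.0495) and without set A replicate 2 (adjusted p = 0.0485). Col27a1, a fibrillar collagen of cartilage also named here after its values were seen, was the gene called lower in set B: 25.1 ± 8.81 CPM in control, 22.8 ± 8.62 CPM across set A and 12.9 ± 4.25 CPM across set B (mean ± SD, n = 4), with overlapping ranges and a log2 fold change of -0.96 (SE 0.34, edgeR adjusted p = 0.0477). That call was lost in 11 of 18 alternative analyses, with an adjusted p of up to 0.203 without control replicate 4. The remaining fibrillar genes Col5a3, Col24a1 and Col11a2 had a mean of at most 2.81 CPM in every group and were not called. Without control replicate 3 Col5a3 passed as higher in both sets (edgeR adjusted p = 0.023 and 0.0372). Col24a1 did so without control replicate 1 (edgeR adjusted p = 0.0304 and 0.0198), and in set B by DESeq2 (adjusted p = 0.0301).

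**Figure D2:**
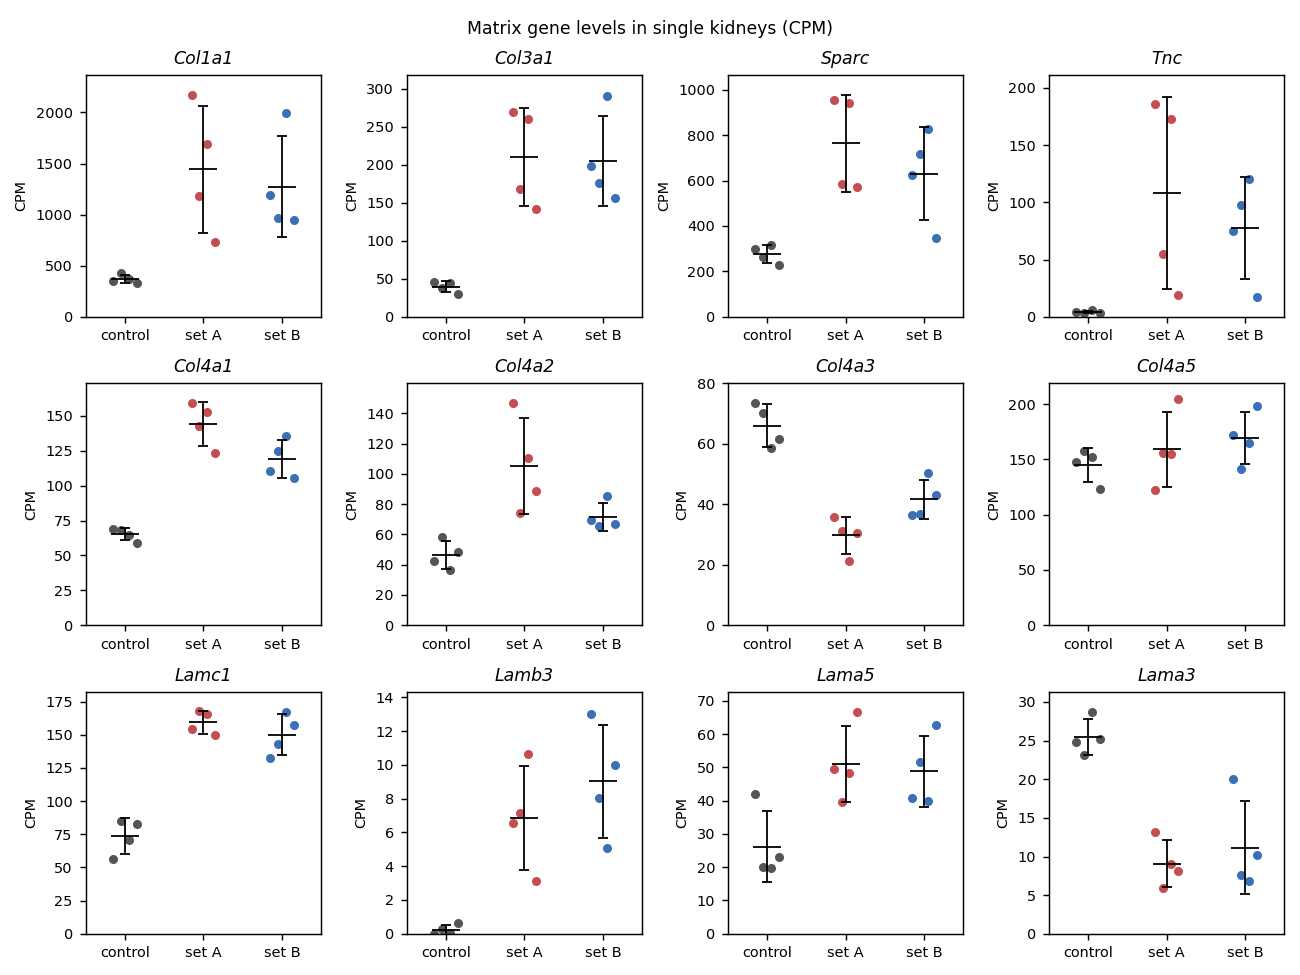
Levels of 12 matrix genes in single kidneys, in CPM on linear axes that start at 0, for control (grey), ischemia set A (red) and ischemia set B (blue). Each point is 1 kidney, the long bar is the mean and the whiskers are the SD (n = 4). Col1a1, Col3a1, Sparc, Tnc, Col4a1 and Lamc1 lie above all controls in all 8 ischemic kidneys, Col4a3 and Lama3 lie below them, and Col4a5 overlaps.

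Fibril-associated collagens sit on the surface of fibrils, and of their 5 genes 1 was called higher in each set and 1 lower in set B. With so few genes, 1 call (20.0%) is close to the 10.5% and 10.9% of all genes tested called higher and the 11.9% called lower in set B. Col12a1 had 14.1, 10.7, 24.6 and 7.63 CPM in the control kidneys, 30.7, 22.7, 30.6 and 26.1 CPM across set A and 30.9, 34, 21.2 and 28.2 CPM across set B. Control replicate 3 reached the ischemic range, and the other 3 controls stayed below it. Col12a1 passed in set A (edgeR, log2 fold change 0.95, SE 0.32, adjusted p = 0.0371) and in set B (log2 fold change 1.01, SE 0.32, adjusted p = 0.0274), but each call depended on single kidneys. The set A call was lost without control replicates 1, 2 or 4, without set A replicates 1, 3 or 4 and without set B replicate 1, and the set B call without control replicates 1, 2 or 4, without set B replicates 1 or 2 and when only the groups compared entered the fit, with an adjusted p of up to 0.115 and 0.0933.

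Col14a1 had 18.9, 33.7, 37.5 and 21.8 CPM in the controls, 11.1, 13.7, 10.4 and 3.67 CPM across set A and 8.73, 1.58, 3.68 and 0 CPM across set B. No ischemic kidney reached the lowest control, and set B replicate 4 had 0 counts. The fall of Col14a1 was 7.87-fold in set B (edgeR, log2 fold change -2.98, SE 0.77, adjusted p = 0.0072). Without set B replicate 1, the highest of its set, the log2 fold change there was -3.99. In set A the difference of -1.53 on the log2 scale missed the threshold (SE 0.72, adjusted p = 0.155) and passed without set B replicate 4 or when only the groups compared were fitted, with an adjusted p as low as 0.00784. Between the sets Col14a1 did not pass the test (set B against set A, edgeR, log2 fold change -1.45, SE 0.73, adjusted p = 0.994). Col16a1 was not called in either set (log2 fold changes 0.87 and 0.76). Col19a1 had 1.44, 2.96, 0 and 2.51 CPM in control, 0 CPM in all of set A and 0, 1.64, 0 and 0 CPM across set B, and it was not called (edgeR adjusted p = 0.0623 and 0.648) but passed as lower in set A in DESeq2 (adjusted p = 0.0221). Col20a1 had at most 2.29 CPM in any kidney and no counts in set B.

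Beaded-filament, network and anchoring collagens numbered 6, of which 2 passed as higher in set A, and 1 of these did so in set B. These were 33.3% and 16.7% of the 6, beside 10.5% and 10.9% of all genes tested, and the single call in set B is near that background. Col6a3 encodes the large alpha3 chain of type VI collagen, a microfibril around cells. It had 44.4, 29.3, 34 and 38.8 CPM in control, 85.8, 61.3, 98.5 and 31.8 CPM across set A and 81.8, 96, 99.2 and 50.03 CPM across set B. Set A replicate 4 lay within the control range, while set B lay above it in all 4 kidneys. Col6a3 rose 1.9-fold in set A (edgeR, log2 fold change 0.92, SE 0.28, adjusted p = 0.0232) and 2.23-fold in set B (log2 fold change 1.16, SE 0.29, adjusted p = 0.00508), and the set A call was lost without control replicates 2 or 3 or set A replicates 1 or 3 (adjusted p between 0.0627 and 0.113). The other type VI chains measured were not called: Col6a1 had 2.54, 0.624, 8.64 and 10.4 CPM in control, 5.02, 4.88, 5.9 and 4.76 CPM across set A and 3.13, 1.96, 4.35 and 6.35 CPM across set B, with overlap of all groups, and Col6a2 had 22 ± 6.92, 22.8 ± 6.33 and 21.1 ± 8.21 CPM (mean ± SD, n = 4).

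Col8a1 encodes a chain of the short-chain network collagen of vessel walls. Its CPM values were 5.28, 2.81, 3.09 and 4.7 in control, 13.4, 12.8, 10.05 and 13.4 for set A and 8.62, 5, 10.1 and 3.68 for set B. Set A lay above every control, and set B overlapped the controls in replicates 2 and 4. Col8a1 rose 3.13-fold in set A (edgeR, log2 fold change 1.65, SE 0.48, adjusted p = 0.0164), a call lost without control replicate 2 (adjusted p = 0.0552) or 3 (adjusted p = 0.0532), and was not called in set B (log2 fold change 0.79, SE 0.47, adjusted p = 0.275) or between the sets (adjusted p = 1). Col7a1, the anchoring fibril collagen, and Col26a1 stayed below 5 CPM in every kidney and were not called.

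Col15a1 and Col18a1 encode the multiplexins, basement membrane collagens that carry heparan or chondroitin sulfate, and Col18a1 is the source of endostatin. Col18a1 had 5.66, 7.51, 8.8 and 2.51 CPM in the control kidneys, 20.3, 30.1, 19.5 and 27 CPM across set A and 24.2, 16, 15.4 and 16.3 CPM across set B. All ischemic kidneys exceeded all controls, and Col18a1 rose 3.96-fold in set A (edgeR, log2 fold change 1.99, SE 0.37, adjusted p = 0.000497) and 2.94-fold in set B (log2 fold change 1.55, SE 0.37, adjusted p = 0.00392). For Col15a1 the values were 12, 12, 4.13 and 5.54 CPM in control, 37.4, 28.2, 26.1 and 7.59 CPM across set A and 21.7, 6.96, 37.2 and 23.6 CPM across set B. Set A replicate 4 and set B replicate 2 lay in the control range. Col15a1 passed in set A (edgeR, log2 fold change 1.56, SE 0.50, adjusted p = 0.0301) and narrowly in set B (log2 fold change 1.41, SE 0.50, adjusted p = 0.0493). Its set A call was lost without control replicates 3 or 4 or set A replicates 1, 2 or 3 (adjusted p of up to 0.0988), and its set B call in 11 of 18 alternative analyses (adjusted p of up to 0.19, without set B replicate 3).

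Col17a1 encodes the transmembrane collagen of hemidesmosomes, the junctions that tie epithelial cells to laminin. It had 0 counts in all 4 control kidneys, and 0.476, 0.0428, 2.95 and 2.89 CPM across set A and 2.16, 0, 0 and 1.52 CPM across set B. Set A replicate 2 had 1 count, and replicates 2 and 3 of set B had none. Col17a1 thus met the count filter only through ischemic kidneys, and its call is no support for a rise of the members. Against the floor of 3 counts per library Col17a1 stood at least 15.4-fold higher across set A, and for set B the bound was at least 8.91-fold higher (at least 4.92-fold higher without set B replicate 1), with edgeR adjusted p = 0.0417 and 0.0542. The call in set A was lost in 9 of 18 alternative analyses, among them the one without set A replicate 3 (adjusted p = 0.0872), and the gene was called in set B without set B replicate 2 or 3 and by DESeq2 (adjusted p as low as 0.00854). Of the other transmembrane collagens, Col25a1 had 3 counts in a single control kidney and met the count filter only through ischemic kidneys. It had 2.41, 1.24, 1.19 and 0.783 CPM across set A and 0.472, 0.633, 0 and 0 CPM across set B and passed in neither (edgeR adjusted p = 0.113 and 0.324), although DESeq2 called it higher in set A (adjusted p = 0.0175). Col13a1 stayed below 4 CPM and was not called.

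Type IV collagen assembles from the chains of 6 genes, which lie in head-to-head pairs on the chromosomes. The alpha1 and alpha2 chains, encoded by Col4a1 and Col4a2, form the network of nearly all basement membranes, and the alpha3, alpha4 and alpha5 chains form that of the adult glomerular basement membrane and of some tubules. In each set Col4a1 and Col4a2 were called higher, Col4a3 was called lower, and Col4a4, Col4a5 and Col4a6 were not called. The 2 higher calls were 33.3% of the 6 genes (10.5% and 10.9% of all genes tested), and the lower call 16.7% (11.7% and 11.9%). Col4a1 lies at chr8:11198423-11312826 on the minus strand and Col4a2 at chr8:11312805-11449287 on the plus strand of mm10, with starts 21 bases apart.

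The promoter windows of this pair are shown because the genes start close to each other and were both called higher in each set. Each window runs from 250 bases before to 50 bases after a start (RefSeq, GRCm38.p6), and they share 78 bases. That of Col4a1 is chr8:11312777-11313076 on the minus strand and that of Col4a2 is chr8:11312555-11312854 on the plus strand, both written 5′ to 3′, with capitals for the letters CCAAT or its reverse ATTGG and GGGCGG or its reverse CCGCCC.
Col4a1: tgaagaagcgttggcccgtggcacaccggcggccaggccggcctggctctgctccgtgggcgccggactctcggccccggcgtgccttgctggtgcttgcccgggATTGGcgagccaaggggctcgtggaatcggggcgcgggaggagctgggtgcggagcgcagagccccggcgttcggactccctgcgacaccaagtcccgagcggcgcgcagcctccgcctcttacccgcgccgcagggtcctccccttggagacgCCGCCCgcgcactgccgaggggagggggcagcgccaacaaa
Col4a2: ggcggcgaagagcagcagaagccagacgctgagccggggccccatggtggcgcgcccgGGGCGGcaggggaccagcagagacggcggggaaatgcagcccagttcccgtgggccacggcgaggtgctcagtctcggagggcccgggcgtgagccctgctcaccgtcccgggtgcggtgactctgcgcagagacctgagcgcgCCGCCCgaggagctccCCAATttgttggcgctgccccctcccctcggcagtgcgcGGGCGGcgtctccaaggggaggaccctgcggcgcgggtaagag
Neither window holds TATAAA or TTTATA. Across the 38 members with a window in the table, which was searched on both strands, CCAAT or its reverse was found for 34.2% of genes, GGGCGG or its reverse for 63.2% and TATAAA or its reverse for 15.8%. In all 27025 genes with windows of this length the shares were 41.1%, 38.2% and 15.7%. A match describes letters in the window and not a used site.

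Col4a1 had 69.3, 68.1, 64.5 and 59.3 CPM in the control kidneys, 159, 143, 153 and 123 CPM across set A and 111, 125, 136 and 105 CPM across set B. The ischemic kidneys all lay above the controls with a narrow spread, and Col4a1 rose 2.21-fold in set A (edgeR, log2 fold change 1.15, SE 0.15, adjusted p = 6.19e-06) and 1.83-fold in set B (log2 fold change 0.87, SE 0.14, adjusted p = 0.000141). Col4a2 had 42.5, 58.5, 36.2 and 48.5 CPM in control, 147, 74.3, 111 and 88.4 CPM across set A and 69.2, 65.5, 85.3 and 66.5 CPM across set B, again without overlap with the controls. Its rise was 2.26-fold in set A (edgeR, log2 fold change 1.18, SE 0.21, adjusted p = 0.000302) and 1.54-fold in set B (log2 fold change 0.62, SE 0.21, adjusted p = 0.0366). The set B call of Col4a2 was the less firm of these: it was lost in 8 of 18 alternative analyses, among them those with a replicate block (adjusted p = 0.06), without control replicate 3 (adjusted p = 0.13) and without set B replicate 3 (adjusted p = 0.126).

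Col4a3, mutated in Alport syndrome together with Col4a4 and Col4a5, lies at chr1:82586921-82722059 on the plus strand, with a start 72 bases from that of Col4a4 at chr1:82448423-82586849 on the minus strand. Col4a3 had 73.6, 69.98, 58.7 and 61.4 CPM in the control kidneys, 35.7, 31.2, 21.3 and 30.6 CPM across set A and 36.5, 36.8, 50.2 and 43 CPM across set B. Every ischemic kidney lay below every control. The fall was 2.22-fold in set A (edgeR, log2 fold change -1.15, SE 0.20, adjusted p = 0.000275) and 1.58-fold in set B (log2 fold change -0.66, SE 0.20, adjusted p = 0.0219), and between the sets Col4a3 did not pass (log2 fold change 0.49, SE 0.20, adjusted p = 0.941, unadjusted p = 0.0264). The set B call was lost without control replicates 1 or 2 or set B replicates 1 or 2 (adjusted p between 0.0564 and 0.0652).

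Col4a4 had 19.3, 15.9, 7.87 and 24.3 CPM in control, 8.76, 7.83, 10.2 and 5.48 CPM across set A and 9.74, 10.6, 13.2 and 19.4 CPM across set B, so that control replicate 3 fell within the set A range. It was not called (edgeR, log2 fold change -1.06, SE 0.40, adjusted p = 0.064 for set A and log2 fold change -0.35, SE 0.39, adjusted p = 0.632 for set B), and without control replicate 3 it passed in set A (adjusted p = 0.0219). Col4a5 lies on the X chromosome and had 148, 158, 152 and 123 CPM in control, 122, 156, 155 and 204 CPM across set A and 172, 142, 165 and 199 CPM across set B. These ranges overlapped, with log2 fold changes of 0.13 and 0.22 (SE 0.16 in each, edgeR adjusted p = 0.674 and 0.387). Col4a6 had 0, 0, 0 and 2.4 CPM in control, 0, 0.856, 3.02 and 0.783 CPM across set A and 0.472, 0, 0 and 1.65 CPM across set B, and was not called (edgeR adjusted p = 0.872 and 0.979).

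Col4a1 and Col4a3 stood at nearly the same CPM in the controls and moved apart after ischemia. The ratio of Col4a1 to Col4a3 was 0.941, 0.973, 1.1 and 0.965 in the control kidneys, 4.46, 4.57, 7.19 and 4.03 across set A and 3.03, 3.4, 2.71 and 2.45 across set B. This ratio was higher in all 8 ischemic kidneys than in any control, and its difference between the sets was not tested. Col4a3 over Col4a5 was 0.498, 0.443, 0.386 and 0.5 in control, 0.293, 0.2, 0.138 and 0.15 across set A and 0.213, 0.259, 0.304 and 0.216 across set B, lower in all 8 ischemic kidneys than in any control. Col4a1 over Col4a2 overlapped in all groups, with 1.63, 1.16, 1.78 and 1.22 in control, 1.09, 1.92, 1.38 and 1.39 across set A and 1.6, 1.91, 1.59 and 1.58 across set B. Per kb of exon, Col4a3 made up 14.5% ± 0.932 of the type IV chain CPM in control (mean ± SD, n = 4), 4.75% ± 0.984 for set A and 7.24% ± 0.644 for set B, and Col4a1 19.2% ± 0.81, 30.9% ± 3.41 and 27.9% ± 3.64. Markers of podocytes, which make the alpha3, alpha4 and alpha5 chains, were called higher in each set for 4 of 7 genes (Synpo, Podxl, Wt1 and Plce1) and lower for 0. The higher calls were 57.1% of these markers, where 10.5% and 10.9% of all genes tested were called higher and 11.7% and 11.9% lower. Their medians were 0.74 and 0.68 on the log2 scale, and their summed level was 184 to 224 CPM in control, 230 to 401 CPM across set A and 252 to 413 CPM across set B. Their part in the type IV chain changes was not tested.

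**Figure D3:**
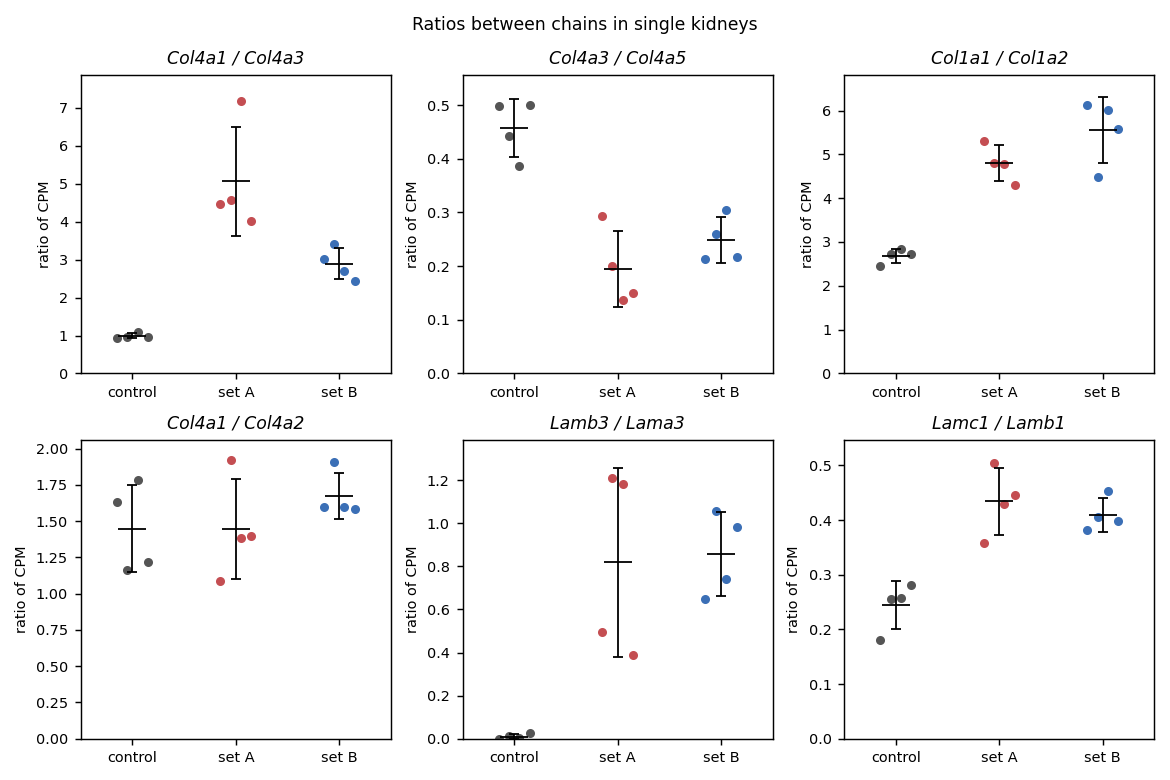
Ratios of CPM between chains in single kidneys for control (grey), ischemia set A (red) and ischemia set B (blue), on linear axes that start at 0. Points are kidneys, long bars are means and whiskers are SDs (n = 4). Col4a1 over Col4a3 is near 1 in the controls and between 2.45 and 7.19 in the ischemic kidneys, Col4a1 over Col4a2 overlaps between the groups, and Col1a1 over Col1a2, Lamb3 over Lama3 and Lamc1 over Lamb1 are higher in every ischemic kidney than in any control.

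Among the 10 laminin chain genes described 3 were called higher in each set, 1 was called lower in set A, and 2 were in set B. The lower calls were 10% (set A) and 20.0% (set B) of these genes, where 11.7% and 11.9% of all genes tested were called lower, and the higher calls were 30.0% in each, against 10.5% and 10.9%. Their median log2 fold change was 0.15 for set A and -0.33 for set B. The alpha chain genes moved in both directions, the beta1 and beta2 genes were not called, and the gamma1 gene rose.

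Lamc1 encodes the gamma1 chain, which most laminins contain. It had 56, 84.8, 70.5 and 83 CPM in the control kidneys, 155, 168, 166 and 149.7 CPM across set A and 132, 143, 167 and 158 CPM across set B. The ischemic kidneys lay well above the controls and close to each other, and Lamc1 rose 2.17-fold in set A (edgeR, log2 fold change 1.12, SE 0.15, adjusted p = 1.43e-05) and 2.04-fold in set B (log2 fold change 1.03, SE 0.15, adjusted p = 3.78e-05). Lamb1, the beta1 chain that pairs with gamma1, had the highest control level per length of these laminin genes (30.5 CPM per kb of exon, against 8.89 for Lamc1). It had 309.95, 331, 274 and 294 CPM in control, 433, 333, 387 and 336 CPM across set A and 347, 352, 370.2 and 396 CPM across set B. These values did not overlap with the controls, yet Lamb1 missed the threshold (edgeR, log2 fold change 0.30, SE 0.12, adjusted p = 0.0822 for set A and log2 fold change 0.28, SE 0.12, adjusted p = 0.108 for set B) and passed in DESeq2 (adjusted p = 0.0257 and 0.0339). The ratio of Lamc1 to Lamb1 was 0.181, 0.256, 0.257 and 0.282 in control, 0.357, 0.505, 0.429 and 0.445 across set A and 0.382, 0.405, 0.452 and 0.398 across set B, higher in all ischemic kidneys. Lamb2, the beta2 chain of the glomerular basement membrane and of synapses, had 37.3, 29.3, 28.4 and 29.1 CPM in control, 34.9, 31.1, 37.7 and 34.2 CPM across set A and 18.8, 23, 35.9 and 49.7 CPM across set B, and was not called (adjusted p = 0.799 and 0.959).

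Lama3 and Lamb3 encode the alpha3 and beta3 chains, which occur in the laminin that anchors hemidesmosomes in skin and other epithelia, and their calls differed in direction. Lamb3 had 0, 0.286, 0.0386 and 0.627 CPM in control, 6.54, 7.15, 10.6 and 3.13 CPM across set A and 13, 8.04, 5.08 and 9.97 CPM across set B. Control kidneys had between 0 and 24 counts, ischemic kidneys between 52 and 483, and Lamb3 rose 27.1-fold in set A (edgeR, log2 fold change 4.76, SE 0.93, adjusted p = 0.000673) and 35.6-fold in set B (log2 fold change 5.15, SE 0.94, adjusted p = 0.000385). Without control replicate 4, the highest control, the log2 fold changes of Lamb3 were 5.81 and 6.19.

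Lama3 ran the other way. It had 24.8, 23.2, 28.7 and 25.2 CPM in the control kidneys, 13.2, 5.91, 8.99 and 8.07 CPM across set A and 20.01, 7.59, 6.87 and 10.2 CPM across set B. No ischemic kidney reached the lowest control, with set B replicate 1 the nearest to them. Lama3 fell 2.82-fold in set A (edgeR, log2 fold change -1.49, SE 0.38, adjusted p = 0.00618) and 2.28-fold in set B (log2 fold change -1.19, SE 0.37, adjusted p = 0.0261), and the set B call was lost without control replicates 1, 3 or 4 or set B replicates 2 or 3 (adjusted p between 0.0528 and 0.0739). The ratio of Lamb3 to Lama3 was at most 0.0249 in a control kidney and at least 0.388 in an ischemic one. Lama3 produces transcripts of different length, and the gene counts do not tell them apart.

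Lama5 encodes the alpha5 chain of adult tubular and glomerular basement membranes. It had 41.9, 20.1, 19.9 and 23 CPM in control, 49.6, 39.7, 48.2 and 66.7 CPM across set A and 40.7, 51.6, 39.99 and 62.7 CPM across set B. Control replicate 1 lay within the ischemic range and the other controls lay below it. Lama5 rose 1.95-fold in set A (edgeR, log2 fold change 0.96, SE 0.26, adjusted p = 0.01) and 1.86-fold in set B (log2 fold change 0.90, SE 0.26, adjusted p = 0.0159), with the set B call lost without control replicates 2, 3 or 4 (adjusted p between 0.0555 and 0.0659). Per kb of exon, Lama5 was 27.0% ± 5.27 of the laminin alpha chain CPM in the controls (mean ± SD, n = 4), 58.9% ± 12.97 for set A and 64.8% ± 11.1 for set B, while Lama3 was 29.5% ± 7.49, 10.7% ± 2.07 and 15.5% ± 7.62.

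Lama2, the alpha chain of muscle basement membranes, had 47.7, 53.5, 20.3 and 29.9 CPM in control, 31.4, 14.3, 37 and 12.3 CPM across set A and 10.7, 19, 6.04 and 7.87 CPM across set B. Set A overlapped the controls and set B did not. Lama2 fell 3.47-fold in set B (edgeR, log2 fold change -1.79, SE 0.42, adjusted p = 0.00358) and was not called in set A (log2 fold change -0.67, SE 0.41, adjusted p = 0.3) or between the sets (log2 fold change -1.13, SE 0.42, adjusted p = 0.93, unadjusted p = 0.0139). Lama1, the alpha1 chain first made in the embryo and kept in some tubular basement membranes, had 11.4, 4.73, 5.48 and 3.11 CPM in control, 3.02, 1.63, 1.83 and 1.08 CPM across set A and 1.45, 2.66, 2.71 and 0 CPM across set B. Although every ischemic kidney was below every control, Lama1 was not called (edgeR, log2 fold change -1.70, SE 1.04, adjusted p = 0.3 for set A and log2 fold change -1.85, SE 1.05, adjusted p = 0.246 for set B). Lamc3 showed the same order, with 10.2, 11.2, 5.98 and 5.15 CPM in control, 0, 0.77, 0.573 and 2.47 CPM across set A and 2.06, 0.0633, 0 and 2.67 CPM across set B, and was not called either (edgeR adjusted p = 0.124 and 0.167), although it passed in set A when only the groups compared were fitted (adjusted p = 0.0352). Lama4, the alpha chain of vessels, had 10.7, 7.82, 9.8 and 6.82 CPM in control, 13.2, 2.87, 17.2 and 5.48 CPM across set A and 8.73, 5.5, 6.53 and 0.952 CPM across set B. All groups overlapped, and Lama4 was not called.

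Of the 4 genes for proteins that link laminin, type IV collagen and cells, 2 were called higher in set A, and 1 of these was in set B, where 10.5% (set A) and 10.9% (set B) of all genes tested were called higher, so that 1 or 2 calls of 4 genes say little of the group. Agrn encodes agrin, a heparan sulfate proteoglycan of the glomerular basement membrane, and had 62.1, 49.8, 69 and 51.5 CPM in control, 125, 117, 119 and 83.1 CPM across set A and 112, 83, 107 and 82.3 CPM across set B. All ischemic kidneys lay above all controls. Agrn rose 1.91-fold in set A (edgeR, log2 fold change 0.94, SE 0.18, adjusted p = 0.000524) and 1.66-fold in set B (log2 fold change 0.73, SE 0.18, adjusted p = 0.00468). Nid1, which encodes nidogen-1, had 56.9, 55.7, 68.5 and 48.1 CPM in control, 119.8, 79.9, 115 and 69.7 CPM across set A and 70.2, 59.7, 69.5 and 34.1 CPM across set B. Set A lay just above the controls, while set B spanned them. Nid1 rose 1.68-fold in set A (edgeR, log2 fold change 0.75, SE 0.23, adjusted p = 0.0231) and had 0.03 in set B on the log2 scale (adjusted p = 0.963), and the test between the sets gave -0.72 (SE 0.23, adjusted p = 0.93, unadjusted p = 0.0056). The set A call was lost without control replicates 1, 2 or 4 or set A replicates 1 or 3 (adjusted p of up to 0.0857). Hspg2, the gene of perlecan, had 118, 128, 107 and 109 CPM in control, 193, 113, 175 and 98.5 CPM across set A and 105, 115, 141 and 159 CPM across set B. Nid2, the gene of nidogen-2, had 17.2, 17.5, 16.4 and 6.17 CPM in control, 9.81, 5.61, 13.6 and 3.19 CPM across set A and 10.4, 7.15, 9.77 and 4.06 CPM across set B. In both genes the ischemic kidneys overlapped the controls, and neither was called.

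Of the provisional and matricellular glycoproteins, Tnc had the largest change. Tnc encodes tenascin-C, a protein that is scarce in adult tissue and appears at sites of injury, and lies at chr4:63959785-64047015 on the minus strand. It had 4.27, 3.28, 5.56 and 3.35 CPM in the control kidneys, 186, 54.9, 173 and 18.7 CPM across set A and 74.7, 97.3, 121 and 17.2 CPM across set B. Even the lowest ischemic kidney, set B replicate 4, was about 3 times the highest control, and replicate 4 was by far the lowest of each set. Tnc rose 26.5-fold in set A (edgeR, log2 fold change 4.73, SE 0.63, adjusted p = 1.07e-05) and 18.9-fold in set B (log2 fold change 4.24, SE 0.61, adjusted p = 3.06e-05). The first of the 2 promoter windows that the table lists for Tnc is shown for this change (RefSeq, GRCm38.p6, chr4:64046966-64047265, minus strand, 5′ to 3′), with TATAAA and GGGCGG in capitals.
Tnc: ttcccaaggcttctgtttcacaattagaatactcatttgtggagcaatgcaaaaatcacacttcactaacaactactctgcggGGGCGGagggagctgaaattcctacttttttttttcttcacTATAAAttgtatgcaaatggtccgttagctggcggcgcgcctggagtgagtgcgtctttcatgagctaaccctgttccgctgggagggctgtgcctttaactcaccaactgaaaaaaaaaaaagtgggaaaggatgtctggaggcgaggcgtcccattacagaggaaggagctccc

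Sparc encodes a collagen-binding glycoprotein and had the highest level per length of all members in the controls (72.8 CPM per kb of exon). It had 298, 263, 315 and 228 CPM in control, 957, 585, 944 and 574 CPM across set A and 625, 718, 829.98 and 348 CPM across set B. No ischemic kidney overlapped the controls, and Sparc rose 2.77-fold in set A (edgeR, log2 fold change 1.47, SE 0.22, adjusted p = 4.83e-05) and 2.29-fold in set B (log2 fold change 1.19, SE 0.22, adjusted p = 0.000415). Fn1, the gene of fibronectin, had 48.1, 55.6, 66.5 and 45 CPM in control, 165, 92.1, 135 and 41.2 CPM across set A and 99.3, 76.4, 121 and 50.4 CPM across set B. Set A replicate 4 lay below all controls, set B replicate 4 lay within their range, and the other 6 ischemic kidneys lay above all controls. Fn1 rose 2.02-fold in set A (edgeR, log2 fold change 1.01, SE 0.32, adjusted p = 0.0258) and was not called in set B (log2 fold change 0.69, SE 0.32, adjusted p = 0.132), but it passed there without set B replicate 4 (adjusted p = 0.0419), and the set A call was lost without control replicates 1, 2 or 4 or set A replicates 1 or 3 (adjusted p of up to 0.112). Between the sets Fn1 had a log2 difference of -0.32 (adjusted p = 1). Postn, the gene of periostin, had at most 1.27 CPM in any kidney and was not called.

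Fbn1 encodes fibrillin-1, the backbone of microfibrils. It had 101, 117, 116 and 61.4 CPM in control, 357, 249, 294 and 125 CPM across set A and 223, 241, 268 and 105 CPM across set B, and set B replicate 4 was the 1 ischemic kidney inside the control range. Fbn1 rose 2.59-fold in set A (edgeR, log2 fold change 1.37, SE 0.29, adjusted p = 0.00148) and 2.12-fold in set B (log2 fold change 1.08, SE 0.29, adjusted p = 0.00939). Bgn, the gene of the small proteoglycan biglycan, had 114, 152, 114 and 112 CPM in control, 201, 93.9, 213 and 67.6 CPM across set A and 89.4, 69.2, 109.5 and 34.7 CPM across set B. Set A straddled the controls, set B lay below them in all 4 kidneys, and Bgn was not called (edgeR, log2 fold change 0.22, SE 0.32, adjusted p = 0.744 for set A and log2 fold change -0.70, SE 0.33, adjusted p = 0.14 for set B), although it passed as lower in set B with a replicate block (adjusted p = 0.0201). Col4a3bp, the ceramide transfer gene, had 105, 115, 119 and 123 CPM in control, 75.3, 86.8, 82.6 and 97.9 CPM across set A and 96.7, 89.4, 62.3 and 71.7 CPM across set B. All ischemic kidneys lay below all controls, and the gene was called lower in set B (edgeR, log2 fold change -0.53, SE 0.16, adjusted p = 0.0223) and not in set A (adjusted p = 0.0631). That call was lost without control replicate 4 or set B replicates 3 or 4 (adjusted p of up to 0.0714), and without set A replicate 4 or set B replicates 3 or 4, or with only the groups compared, the gene passed in set A (adjusted p between 0.0418 and 0.0493).

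The ischemic kidneys of a set differed among themselves in a way that many matrix genes shared. Among the 17 genes called higher in both sets, set A replicate 1 was the highest kidney of its set for 11 and replicate 4 the lowest for 13, and in set B replicate 3 was the highest for 12 and replicate 4 the lowest for 9. Col1a1, Col1a2, Col3a1, Col6a3, Col4a1, Fbn1, Sparc, Agrn and Tnc were lowest in replicate 4 of each set, while Lama5 was highest there. Set A replicate 4 and set B replicate 4 had the lowest total counts of their sets (16814285 and 15367342). The median log2 level of the 17 genes above the control mean was 1.81, 1.21, 1.62 and 1.0 in set A and 1.22, 1.33, 1.46 and 1.11 in set B. The part of library size in these differences was not tested.

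**Figure D4:**
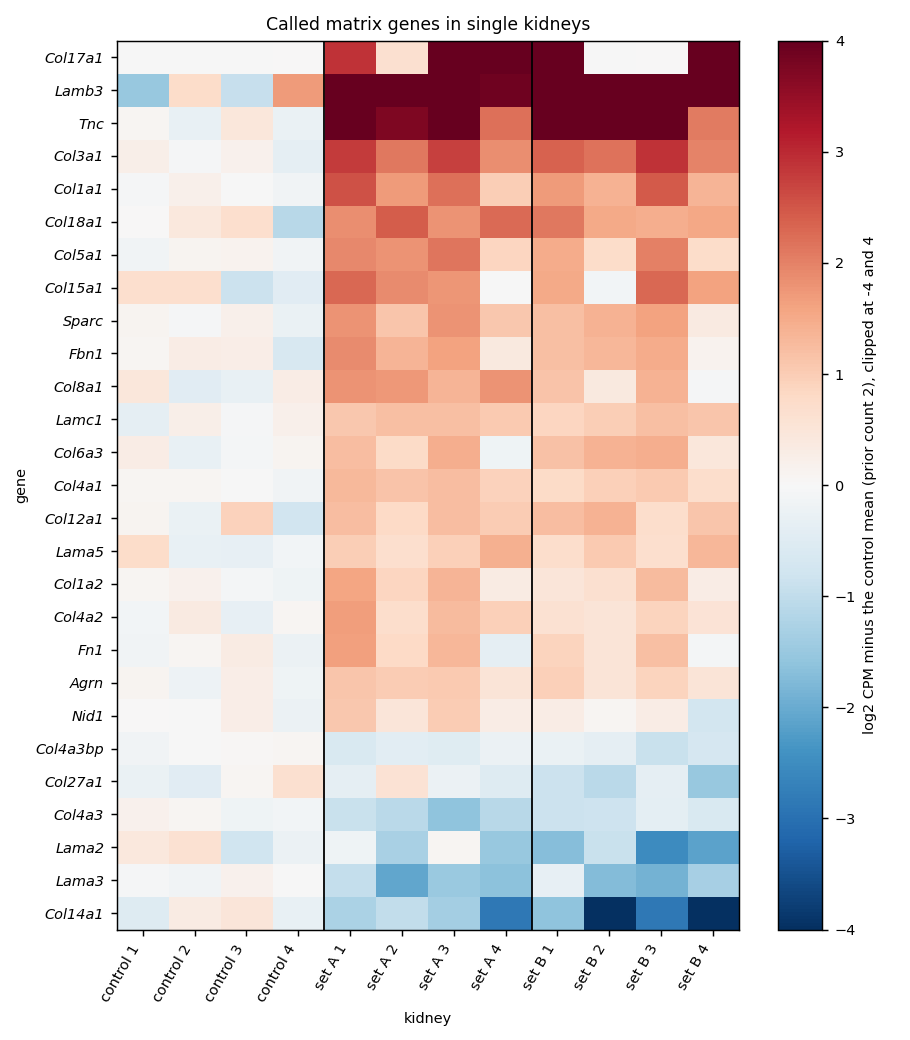
Log2 CPM (prior count 2) minus the control mean for the 27 genes called in either set, with 1 column per kidney and colours clipped at -4 and 4. Red is above and blue below the control mean. Replicate 4 of each ischemic set is paler than the other kidneys of its set for Tnc and Fbn1, and Lama3 and Col4a3 are blue in all 8 ischemic kidneys.

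Between set B and set A, 8 of the 52 genes had an unadjusted p below 0.05 in edgeR, or 15.4%, against 5.03% of all genes tested, and 0 passed after adjustment in edgeR or in DESeq2. Nid1, Bgn, Col27a1, Col4a2, Lama2 and Col20a1 were lower in set B, and Col4a3 and Col19a1 were higher. The smallest unadjusted p was that of Nid1 (0.0056). For Bgn the log2 difference was -0.92 (SE 0.33), for Col4a2 -0.55 (SE 0.21) and for Col27a1 -0.82 (SE 0.34), and Col19a1 and Col20a1 had too few counts for a fold. The median log2 difference of the 52 genes was -0.20, and that of all genes tested -0.01.

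Genes whose products modify, trim, chaperone and cross-link collagen had a median log2 fold change of 0.46 across set A and 0.50 across set B. Of the 25 such genes tested 5 were called higher and 1 lower in set A, and 2 were called higher and 1 lower in set B. The higher calls made up 20.0% (set A) and 8.0% (set B) of the list where all genes tested had 10.5% and 10.9%, and the lower calls 4.0% where all genes had 11.7% and 11.9%, so that in set B both shares lay below those of all genes. Bmp1, the protease that trims procollagen, rose from 16.5 ± 2.66 CPM to 70.2 ± 17.2 CPM across set A and 54.9 ± 14.3 CPM across set B (mean ± SD, n = 4, log2 fold changes 2.09 and 1.73, edgeR adjusted p = 1.73e-06 and 1.58e-05). Loxl4, a lysyl oxidase, rose in both sets as well (3.04 ± 2.2 CPM in control, 15.1 ± 6.34 and 15.5 ± 6.15 CPM, adjusted p = 0.00467 and 0.00406). Serpinh1, the collagen chaperone, Plod3 and Adamts2 were called higher in set A (adjusted p = 0.0168, 0.0475 and 0.0352) and not in set B. P4hb, a subunit of prolyl hydroxylase that is also a general disulfide isomerase, fell in both, from 125 ± 9.48 CPM to 77.7 ± 14.2 and 83.9 ± 9.48 CPM.

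Matrix receptors were called higher for 9 of 24 genes in each set (37.5%) and lower for 1 in set A (4.17%), with medians of 0.74 and 0.71 on the log2 scale. Itga3 (47.6 ± 6.52 CPM in control, 196 ± 23.7 in set A, 214 ± 26.6 in set B, edgeR adjusted p = 6.69e-09 and 3.55e-09) encodes the laminin-binding alpha3 integrin. Itga6 and Itgb4, which form the hemidesmosome integrin that binds laminin, rose too, with log2 fold changes of 1.76 and 2.33 in set A and 1.99 and 2.66 in set B. Itga5, the fibronectin receptor chain, rose from 22.7 ± 5.26 CPM to 166 ± 68.5 and 156 ± 48.9 CPM (adjusted p = 3.04e-07 and 4.44e-07). Itga8, a nephronectin receptor, was the 1 gene called lower, in set A (log2 fold change -2.08, adjusted p = 0.0126). Among 38 further matrix glycoproteins 8 were called higher in each set (21.1%), 4 lower in set A (10.5%) and 5 lower in set B (13.2%), with medians of -0.29 and -0.46. Of all genes tested 10.5% and 10.9% were called higher and 11.7% and 11.9% lower. Spp1, the gene of osteopontin, rose from 16.7 ± 2.45 CPM to 563 ± 114 and 712 ± 174 CPM (adjusted p = 3.11e-12 and 2.52e-12), and Cyr61 from 57.1 ± 15.4 CPM to 328 ± 75.8 and 246 ± 41.6 CPM. Fbln5, an elastic fibre gene, fell from 632 ± 79.97 CPM to 199.7 ± 46.8 and 151 ± 65.1 CPM (adjusted p = 0.000104 and 1.03e-05), and Fras1, Ltbp1 and Ntn4 were called lower in both sets.

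Among markers of fibroblasts, pericytes and smooth muscle, 2 of 8 tested were called, Acta2 and Tagln, both higher in both sets. Beside this and the lists of markers that follow stand the shares of all genes tested, 10.5% and 10.9% higher and 11.7% and 11.9% lower in sets A and B. Acta2, the smooth muscle actin of vessel walls and myofibroblasts, had 271, 162, 249 and 134 CPM in control, 1179.7, 407, 1042 and 474 CPM across set A and 504, 801, 756 and 527 CPM across set B. Pdgfra and Pdgfrb, which define fibroblasts and pericytes, were not called (edgeR adjusted p = 0.669 and 0.452 for set A, 0.521 and 0.775 for set B). Dpt and Gli1 were near 0. The median log2 fold change of this list was 0.10 in each set, and its summed level was 390 to 593 CPM in control, 719 to 1688 CPM across set A and 770.0 to 1189 CPM across set B. Acta2 gave the largest part of that sum in every ischemic kidney. Pdgfra, Rgs5 and Myh11 had log2 fold changes below 0 in both sets and were not called. Of 8 endothelial markers tested 0 were called in set A and 1, Tek, was lower in set B, with medians of -0.27 and -0.40 and summed levels of 199 to 301 CPM in control, 152 to 288 CPM across set A and 136 to 245 CPM across set B. Kdr, the next of them by adjusted p, was not called (edgeR adjusted p = 0.0726 and 0.162).

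Of 5 leukocyte markers tested 2 were called lower in each set (Csf1r and Cd3e) and 0 higher, with medians of -0.01 and 0.57, the list summed to 44.8 to 67.4 CPM in control, 9.42 to 26.8 CPM across set A and 12.7 to 35.1 CPM across set B, and Lyz2, C1qa, C1qc, S100a8 and S100a9 had at most 1.4 CPM. Of 6 fat markers 5 were at 0 in all kidneys, and Car3, the only one tested, had 5.6 ± 1.39 CPM in control (mean ± SD, n = 4), 0 in all of set A (called lower, edgeR adjusted p = 0.00368) and counts in set B replicate 1 alone (adjusted p = 0.0762). The red cell markers Hba-a1 and Hba-a2 were at 0, and Alas2, the only one tested, had 2.44 ± 2.08 CPM in control, 0.219 ± 0.276 CPM across set A (adjusted p = 0.311) and 0 in all of set B (called lower, adjusted p = 0.0266). All 7 proximal tubule markers were called lower in both sets, with medians of -2.71 and -2.82 and a sum of 6667 to 7405 CPM in control, 694 to 1284 CPM across set A and 402 to 1319 CPM across set B. Slc34a1, the phosphate transporter, fell from 4921 ± 280.1 CPM to 421 ± 157 and 426 ± 207 CPM (mean ± SD, n = 4, edgeR adjusted p = 2.45e-08 and 2.66e-08), and Aqp1, a water channel, from 159 ± 13.7 CPM to 24.3 ± 6.75 and 19.5 ± 4.57 CPM (adjusted p = 2.49e-08 and 7.26e-09). Of 6 distal nephron and collecting duct markers 2, Slc12a1 and Calb1, passed as lower in both sets, the medians were -0.35 and 0.01, and the sum was 2937 to 3539 CPM in control, 1137 to 1751 CPM across set A and 1031 to 2045 CPM across set B. Of 6 tubular injury markers 5 were called higher in each set (Havcr1, Lcn2, Krt8, Krt18 and Sox9), with medians of 4.32 and 4.20. The part of these marker changes in the matrix gene changes was not tested.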

How the data were processed

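RNA of 12 mouse kidneys was sequenced as single reads of stranded mRNA libraries. The authors checked reads with FastQC, mapped them with STAR to the mm10 genome and deposited the raw HTSeq counts of 23420 genes. Tool versions, annotation release, duplicate handling and strand setting are not given in the sources used here, and overlapping genes can exchange reads. Gene positions and exon lengths were taken from GENCODE vM21 (mm10) and promoter windows from RefSeq.

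Differential expression was computed in R 4.3.3 with edgeR 4.0.16. The default low-count filter (minimum count 10, minimum total 15) left 11664 genes, among them all 52 members described, and TMM factors lay between 0.968 and 1.03. All 12 kidneys entered a single negative binomial fit (common biological coefficient of variation 0.762), and groups were compared with two-sided quasi-likelihood F-tests with Benjamini-Hochberg adjustment over all genes tested and a threshold of 0.05. CPM used TMM-scaled totals. Alternatives were DESeq2 1.42.0, RLE size factors, 2 other low-count filters, a fit of the groups compared, a replicate block and leaving out each kidney. Each sample is a separate kidney. A p-value weighs the difference between groups against the spread between kidneys, which is estimated from all 12 kidneys with information shared across genes. The procedure was tested on simulated data. Tables and figures were made with Python 3.11.15, pandas 2.3.3 and matplotlib 3.10.9.

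Values were given in full for the 3 members of each role with the smallest adjusted p in either set, the member with the highest control CPM, and all type IV collagen and laminin chains, and the other members were named to account for each. From the receptor, enzyme and marker lists the 2 genes with the smallest adjusted p were named, with exceptions and further called genes picked after their values were seen. The result of 1 further member is not reported here, and the gene was left out of the members' counts and figures. Members and lists were chosen with earlier results of these data known.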

Additional observations from a re-analysis of the deposited data

Results flagged for a closer look

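In groups of 4 kidneys a value was set apart when the ratio of its gap to the nearest kidney and the group's range of log2 CPM exceeded Dixon's 95% critical value. This held for 9 of 114 groups tested, and chance alone sets apart about 1 in 20. The kidneys were set A replicate 4 for Agrn, the lowest of its set at 83.1 CPM, and set A replicate 3 for Col8a1, the lowest at 10.05 CPM. In set B they were replicate 1 for Col18a1, the highest at 24.2 CPM, replicate 2 for Col19a1, the highest at 1.64 CPM where the other kidneys had 0, and replicate 4 for Lama1, the lowest at 0 CPM. Among the controls they were replicate 4 for Nid2, the lowest at 6.17 CPM, replicate 4 for Col4a6, the highest at 2.40 CPM where the others had 0, replicate 2 for Bgn, the highest at 152 CPM, and replicate 1 for Lamb2, the highest at 37.3 CPM.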

How the results depend on the processing

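Under the 18 alternatives the counts of members called higher stayed within 1.5 times the reported ones, while those called lower went from 2 to as many as 5 in set A and from 6 to as few as 3 in set B. DESeq2 called 23 members higher and 3 lower in set A and 20 higher and 6 lower in set B, and RLE size factors and the other low-count filters gave 21, 2, 17 and 5 or 6. With only the groups compared in the fit, 21 were higher and 5 lower in set A and 15 higher and 5 lower in set B. The replicate block, for numbers that the titles share, gave 20, 2, 15 and 6, and the kidneys of 1 number did not deviate together (correlations of deviations between -0.055 and 0.045). Leaving out each kidney gave 15 to 21 higher and 2 to 4 lower in set A (4 without set B replicate 4), and 12 to 17 higher and 3 to 6 lower in set B (3 without control replicate 1, control replicate 4 or set B replicate 2). Members differing between the sets stayed at 0. Of 46 calls of members against control 30 held in every alternative, 16 were lost in at least 1 and 0 changed sign, and 17 of 58 comparisons of a member with control that had no call gained one in at least 1. Depth limits the low members: with 3 counts as the floor, values below 0.067 to 0.195 CPM could not be told from 0.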
